A study of Mus musculus with 9 samples.

Results

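The expression of 10 genes of glycolysis and the hypoxia response was followed across myeloid cells sorted from the inflamed lungs of mice given interleukin-25 (IL-25). The genes were Hif1a, Vegfa, Slc2a1, Hk2, Pfkfb3, Ldha, Pgk1, Egln3, Bnip3 and Acod1. Members were chosen by gene symbol, as every probe set annotated to 1 of these genes alone, which gave 20 of the 45037 probe sets and 10 of the 18193 genes measured. RNA was hybridised to 9 Affymetrix mouse arrays, 3 under the label T2M (type 2 myeloid cells) and 2 each under the labels Eosinophils, Neutrophils and Macrophages. All donors were female 4get mice on the BALB/c background, 6 to 8 weeks old, whose Il4 gene carries a green fluorescent (GFP) reporter. All received 0.5 µg of IL-25 in 50 µL of PBS into the trachea daily for 4 days, and no untreated mice were among the samples analysed here. Lungs were digested with collagenase, CD11b+ cells were enriched on magnetic columns, and 400000 cells were sorted from 4 pooled donors per replicate. T2M cells were gated as GFP+, IL-5 receptor alpha negative, positive for F4/80, MHC class II low and Gr-1 intermediate. The eosinophil gate was GFP-, IL-5 receptor alpha positive, negative for F4/80, MHC class II low and Gr-1 high. The neutrophil gate was GFP-, IL-5 receptor alpha negative, negative for F4/80, MHC class II low and Gr-1+. The macrophage gate was GFP-, IL-5 receptor alpha negative, positive for F4/80, MHC class II+ and Gr-1-.

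Hypoxia-inducible factor (HIF) is a transcription factor whose alpha subunit, made by Hif1a, is degraded in oxygenated cells after prolyl hydroxylases of the Egln family mark it for the VHL ubiquitin ligase. When oxygen falls, or when inflammatory signals raise the subunit, it pairs with Arnt and switches on genes for glucose uptake, glycolysis and vessel growth. Activated myeloid cells draw much of their energy from glycolysis, and Acod1 diverts a tricarboxylic acid (TCA) cycle intermediate into itaconate in such cells.

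The labels were checked against defining markers before the levels were compared, and in several cases the markers went against them. The mean log2 level of 8 eosinophil markers was 8.76 to 9.34 on the T2M-labelled arrays and 5.85 to 6.52 on the eosinophil-labelled ones, and Ccr3, the eotaxin receptor, averaged 9.87 and 5.33. The eosinophil-labelled arrays held the highest neutrophil markers, with a mean of 11.6 to 12.2 over 10 markers against 7.98 to 9.29 on the neutrophil-labelled arrays, and Csf3r, the receptor for granulocyte colony-stimulating factor, averaged 12.39 and 9.98. Of the 11 macrophage and monocyte markers, the mean was highest on the neutrophil-labelled arrays, at 10.4 to 10.6, against 9.07 to 9.19 on the macrophage-labelled ones. Those held the highest mean of 9 dendritic cell markers, 11.3 to 11.4, against 8.35 to 10.4 elsewhere. H2-Aa, H2-Ab1, H2-Eb1 and Cd74 among the 9 are genes of MHC class II presentation. The macrophage gate was positive for MHC class II and the others low, so high levels of these go with the gate. Outside that part, Flt3, a dendritic cell growth factor receptor, averaged 8.35 on the macrophage-labelled arrays and 4.51 to 4.99 elsewhere, and Zbtb46 9.27 and 5.77 to 6.37. The mean of 8 epithelial, endothelial and stromal markers was 8.36 to 8.61 on the T2M-labelled arrays, 7.63 to 7.70 on the eosinophil-labelled, 6.82 to 7.93 on the neutrophil-labelled and 6.64 to 6.97 on the macrophage-labelled arrays, and 3 of the 8 were called higher under the T2M than the macrophage label, with a median difference of 2.27. The part of these markers in the results was not tested, and each population is named below by its label only. In sorted pools, a lower share of cells that express a gene and less RNA per cell cannot be told apart. The 2 macrophage-labelled arrays correlated at 0.994, against 0.915 to 0.970 for other replicates. Among the neutrophil markers, replicates 1 and 2 of this label read 10.08 and 7.29 for S100a8, 11.35 and 8.47 for S100a9 and 6.37 and 4.99 for Lcn2. Others were close, such as Csf3r (9.20 and 9.05) and Ngp (6.41 and 6.36). Whether the arrays held separate pools or a single RNA was not tested. In the latter case the p-values of this label would rest on 1 sample, so counts with both arrays averaged are given as well. On T2M replicate 1 and eosinophil replicate 1, the 3′ actin control lay 0.61 and 0.54 above the 5′ control on the log2 scale, against -0.10 to 0.03 on the other arrays. The same gap of the Gapdh controls was 2.35 to 3.43 on the T2M-labelled arrays, 1.09 and 2.41 on the eosinophil-labelled, 1.45 and 2.20 on the neutrophil-labelled and 1.02 and 1.20 on the macrophage-labelled arrays, so it was larger on every T2M-labelled than on either macrophage-labelled array, and its part in the results was not tested. The deposited values carry no detection calls, so a low value may be background and a fold against it is then not exact, and each p-value measures only the spread between pooled samples.

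For orientation, the bases before the RefSeq start are printed here for 5 members. Acod1, Egln3 and Slc2a1 differed widely between labels, and Ldha and Pgk1 passed no test in the main fit. Capitals mark each ACGTG or GCGTG, the core letters of the HIF response element, on either strand (on the opposite strand it reads CACGT or CACGC). Sequences are RefSeq's on GRCm38.p6, 5′ to 3′ in the gene's direction, ending at the base before the start, 100 bases each for Acod1, Slc2a1 and Ldha and 250 for Egln3 and Pgk1.

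Acod1, chr14:103046912-103047011, plus strand: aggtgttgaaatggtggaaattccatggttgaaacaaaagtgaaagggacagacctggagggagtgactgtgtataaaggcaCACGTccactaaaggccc
Slc2a1, chr4:119108645-119108744, plus strand: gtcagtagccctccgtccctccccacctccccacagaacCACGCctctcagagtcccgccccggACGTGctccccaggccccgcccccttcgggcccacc
Egln3, chr12:54203875-54204124, minus strand: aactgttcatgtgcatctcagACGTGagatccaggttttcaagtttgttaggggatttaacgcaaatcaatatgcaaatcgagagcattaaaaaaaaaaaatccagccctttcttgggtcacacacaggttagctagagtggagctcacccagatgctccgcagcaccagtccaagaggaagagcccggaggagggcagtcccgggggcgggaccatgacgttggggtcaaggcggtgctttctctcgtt
Ldha, chr7:46845704-46845803, plus strand: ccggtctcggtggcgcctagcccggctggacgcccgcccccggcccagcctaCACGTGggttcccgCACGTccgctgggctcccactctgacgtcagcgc
Pgk1, chrX:106186850-106187099, plus strand: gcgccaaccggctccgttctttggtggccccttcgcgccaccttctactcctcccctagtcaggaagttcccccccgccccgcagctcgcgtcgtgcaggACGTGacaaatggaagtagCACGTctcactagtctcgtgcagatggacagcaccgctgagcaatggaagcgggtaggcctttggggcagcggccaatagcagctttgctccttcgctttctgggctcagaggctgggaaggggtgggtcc

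Over the full 250 bases before each start, at least 1 core was found in 12 of 13 member promoters (92.3%) and in 48.9% of the 18110 promoters of genes on the array. The exception was the upstream Vegfa start (bases chr17:46032378-46032627, minus strand). Vegfa's matches all lie before its other start (chr17:46025164-46025413, minus strand), which is downstream of the first. These letters thus lie inside the gene as read from the first start, and that promoter is still counted among the 12. A CACGTG counts on both strands. The members' promoters were also richer in G and C, with a median of 62.8% against 57.6%. The cores stood in genes that differed widely between labels and in genes that did not, and a match is a description of the letters alone.

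Hif1a, the oxygen-regulated subunit of HIF, was expressed under all labels and was lowest on the macrophage-labelled arrays. On the log2 scale, its level was 11.79, 11.40 and 11.09 on the T2M-labelled arrays. The eosinophil-labelled arrays were at 11.90 and 11.72, the neutrophil-labelled ones at 10.94 and 11.43, and the macrophage-labelled ones at 9.47 and 9.56. The T2M range overlapped the eosinophil and neutrophil ranges, which did not overlap each other, and both macrophage-labelled arrays lay under all others. The T2M label was higher than the macrophage label by 1.91 (SE 0.27, 3.76-fold, adjusted p = 0.00388), the eosinophil label by 2.29 (SE 0.30, 4.9-fold, adjusted p = 0.00199) and the neutrophil label by 1.66 (SE 0.30, 3.17-fold, adjusted p = 0.0287). No difference among the first 3 labels was called, with the eosinophil against the neutrophil label at 0.63 (adjusted p = 0.276). All 4 Hif1a probe sets were called higher under the T2M label (1.91 to 3.55) and the eosinophil label (2.29 to 3.20) than under the macrophage label, and 2 of 4 under the neutrophil label. Over all probe sets, 12.6%, 12.9% and 1.5% were called in these 3 comparisons in either direction. The T2M call was lost without macrophage replicate 1 (adjusted p = 0.0603) and with the macrophage-labelled arrays counted as 1 (adjusted p = 0.0536). The neutrophil call was lost without macrophage replicate 1 (0.264), macrophage replicate 2 (0.223) or T2M replicate 2 (0.057), with the macrophage-labelled arrays averaged (0.256), the arrays of the 2 labels alone (0.0985) or the replicate block (0.0754), and stood at 0.05 after rounding without either eosinophil-labelled array.

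**Figure D1:**
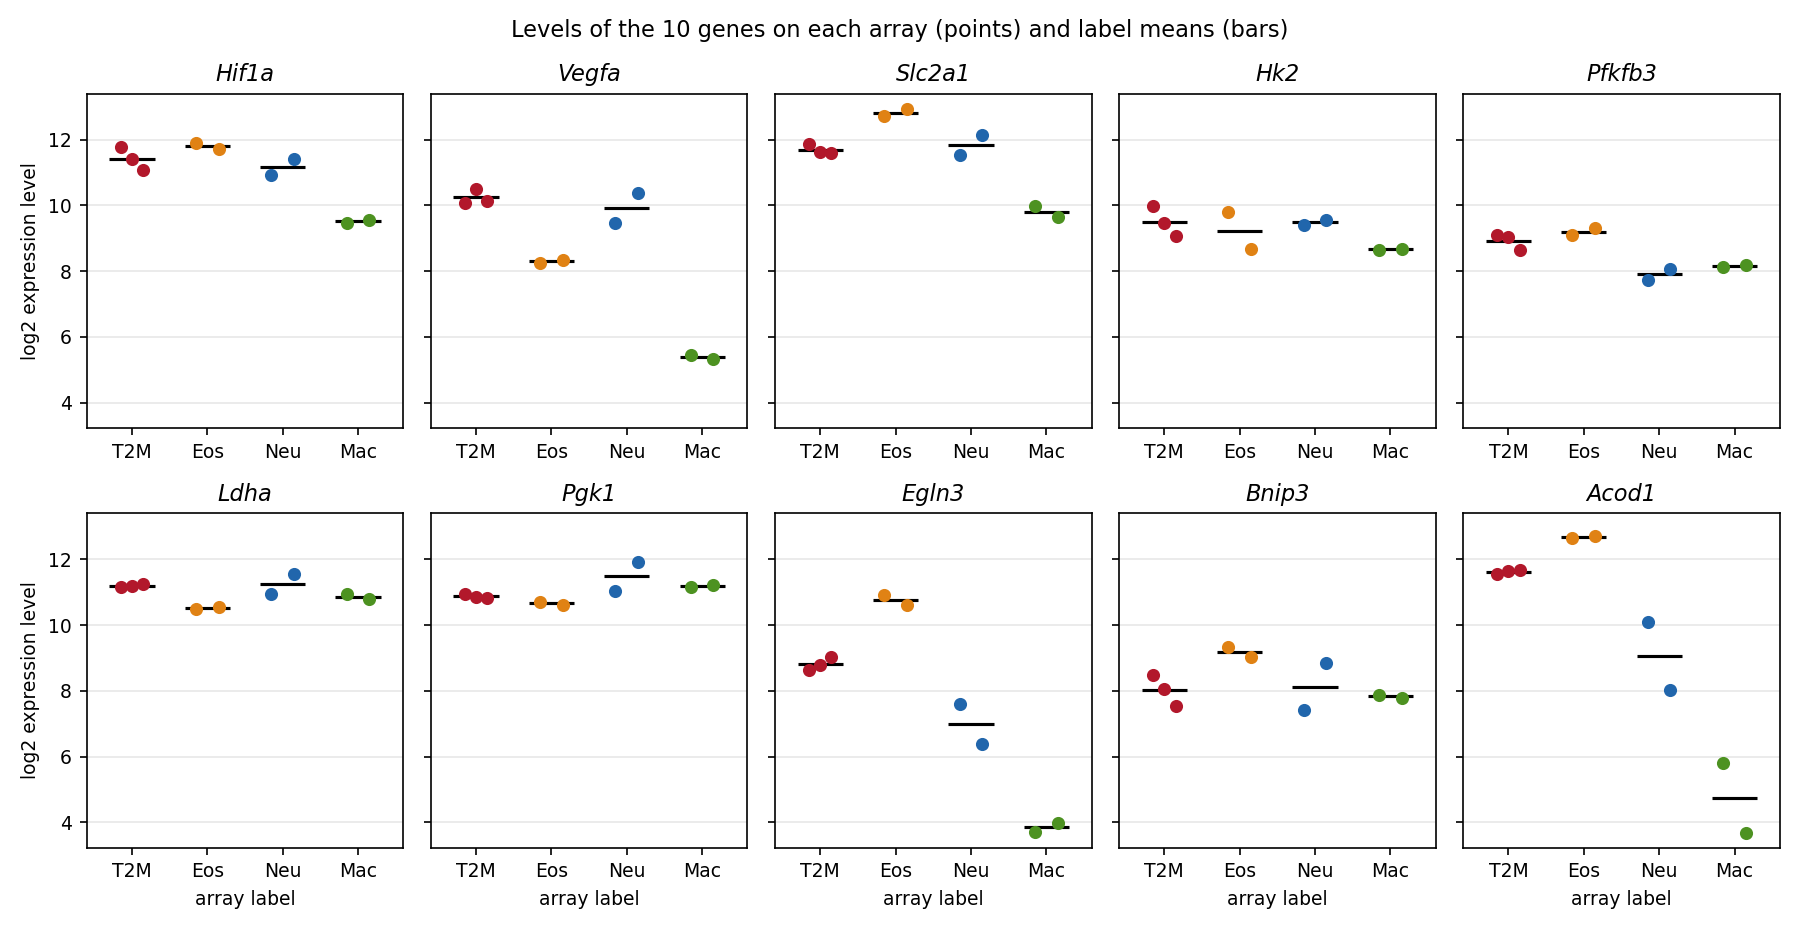
Log2 expression level (vertical axis, one shared scale) of each of the 10 genes by array label (horizontal axis: T2M, Eosinophils, Neutrophils, Macrophages). Points are arrays and bars are label means; the macrophage-labelled arrays lie lowest for Hif1a, Vegfa, Slc2a1, Egln3 and Acod1, while Ldha and Pgk1 stay within 1.07 and 1.29 over all 9 arrays.

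Egln3, the hypoxia-inducible prolyl hydroxylase that marks HIF for degradation, separated all 4 labels. Its log2 level was 8.63, 8.78 and 9.04 under the T2M label, 10.93 and 10.62 under the eosinophil label, 7.60 and 6.37 under the neutrophil label, and 3.70 and 3.99 under the macrophage label. The macrophage-labelled values lay under the medians of those arrays (5.48 and 5.53) and may be background, so the size of folds against that label is uncertain. No labels overlapped, in the order eosinophil, T2M, neutrophil, macrophage, and the range of 7.23 over the arrays exceeded that of 99.9% of all genes. The eosinophil label was 122-fold above the macrophage label (difference 6.93, SE 0.39, adjusted p = 9.31e-05) and 13.8-fold above the neutrophil label (3.79, SE 0.39, adjusted p = 0.00204). The T2M label was 31.4-fold above the macrophage label (4.97, SE 0.36, adjusted p = 0.000235), 3.56-fold above the neutrophil label (1.83, adjusted p = 0.0397) and 3.89-fold below the eosinophil label (-1.96, adjusted p = 0.0225). The neutrophil label was 8.82-fold above the macrophage label (3.14, adjusted p = 0.0059). The second Egln3 probe set gave -3.53 between the T2M and eosinophil labels (adjusted p = 0.00313) but only 0.40 between the T2M and neutrophil labels (adjusted p = 0.657). The T2M call against the neutrophil label was lost without each array in turn other than neutrophil replicate 1 (adjusted p 0.0542 to 0.124). The call against the eosinophil label was lost without T2M replicate 2 or 3 or any eosinophil- or macrophage-labelled array (0.0545 to 0.104), and the neutrophil call without macrophage replicate 1 (0.0819) or 2 (0.0616). Processing alternatives also ended these calls, for T2M against neutrophil with an adjusted p of 0.0509 to 0.148 in 7 of them, for T2M against eosinophil with 0.0575 to 0.158 in 4, and for neutrophil against macrophage with 0.0724 and 0.0733 in 2.

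Among 16 other genes of the oxygen-sensing system, the T2M label had 1 called higher and 2 lower than the macrophage label, close to the 6.53% and 10.6% of all genes so called. Epas1, which encodes the HIF-2 alpha subunit, read 11.22, 10.93 and 10.69 under the T2M label, 9.99 and 8.99 under the eosinophil label, 10.49 and 8.37 under the neutrophil label, and 6.68 and 7.03 under the macrophage label. It was thus lowest on the macrophage-labelled arrays, as Hif1a was, and higher by 4.09 under the T2M label (SE 0.58, adjusted p = 0.00374) and by 2.63 under the eosinophil label (adjusted p = 0.025). Epas1 is also a gene of vessel cells. The mean of the epithelial, endothelial and stromal markers given above was higher on the T2M- than the macrophage-labelled arrays too, and its part in this difference was not tested. Of the markers listed as endothelial, Cdh5 averaged 7.96 under the T2M and 5.03 under the macrophage label, and Pecam1 8.35 and 8.55. Pecam1 was higher still under the eosinophil and neutrophil labels (9.51 and 9.49), where Cdh5 averaged 5.54 and 6.60, so the level of Pecam1 may come from the sorted cells themselves. The lower ones were Vhl, the ubiquitin ligase subunit that binds hydroxylated HIF (-1.42, adjusted p = 0.00863), and Cited2, a HIF-induced competitor for the coactivator p300 (-2.44, adjusted p = 0.0258). Cited2 was also lower under the T2M than the eosinophil label (-3.15, adjusted p = 0.0225). Arnt, Egln1, Egln2 and the asparaginyl hydroxylase gene Hif1an were called in 0 of the 6 comparisons by limma, and passed an unadjusted p of 0.05 in 3, 0, 1 and 0 of them.

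Vegfa, the vascular endothelial growth factor and a classical HIF target, was abundant under the T2M and neutrophil labels and lowest under the macrophage label. Its log2 level was 10.09, 10.51 and 10.13 on the T2M-labelled arrays, 8.26 and 8.34 on the eosinophil-labelled, 9.47 and 10.37 on the neutrophil-labelled, and 5.45 and 5.33 on the macrophage-labelled arrays. The T2M and neutrophil ranges overlapped, the eosinophil-labelled arrays lay below them, and the macrophage-labelled arrays lay below all, at or under their array medians, so that folds against them are not exact. The T2M label exceeded the macrophage label 28.9-fold (4.85, SE 0.30, adjusted p = 0.000148), the neutrophil label exceeded it 23.1-fold (4.53, SE 0.33, adjusted p = 0.000564) and the eosinophil label 7.52-fold (2.91, SE 0.33, adjusted p = 0.00111). The T2M label was 3.84-fold above the eosinophil label (1.94, SE 0.30, adjusted p = 0.0117), and the eosinophil label 3.07-fold below the neutrophil label (-1.62, SE 0.33, adjusted p = 0.0229). These last 2 differences rest on 1 probe set. The other Vegfa probe set read 9.74 and 8.48 on the eosinophil-labelled arrays and gave 0.38 for T2M against eosinophil (adjusted p = 0.853) and 0.41 for eosinophil against neutrophil (adjusted p = 0.824), while its 3 differences from the macrophage label (4.54, 4.16 and 3.75) were all called. The T2M against eosinophil call was lost without eosinophil replicate 1 (0.0561) or 2 (0.0786), with the mean of both probe sets (0.094) or without both arrays with an actin gap (0.0712). The eosinophil against neutrophil call was lost without eosinophil replicate 1 (difference -1.58) or 2 (-1.66), or without either macrophage-labelled array (-1.62 each). It was also lost in 4 processing alternatives, among them the mean of both probe sets (-0.61, adjusted p = 0.404).

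Of 9 receptors and other ligands of the family, T2M against macrophage had 1 called higher, the lymphatic receptor gene Flt4 (1.30, adjusted p = 0.0211), and 0 lower, which is near the 6.53% and 10.6% of all genes so called. The list's median difference was 0.56 there, beside 0.18 over all genes, and 4 genes were higher and 0 lower at an unadjusted p under 0.05. Flt1, a Vegfa receptor, was lower than under the neutrophil label both under the T2M label (-1.34, adjusted p = 0.0431) and under the eosinophil label (-1.54, adjusted p = 0.0191), and Nrp2, a coreceptor, was lower under the eosinophil than the neutrophil label (-1.67, adjusted p = 0.0306).

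**Figure D2:**
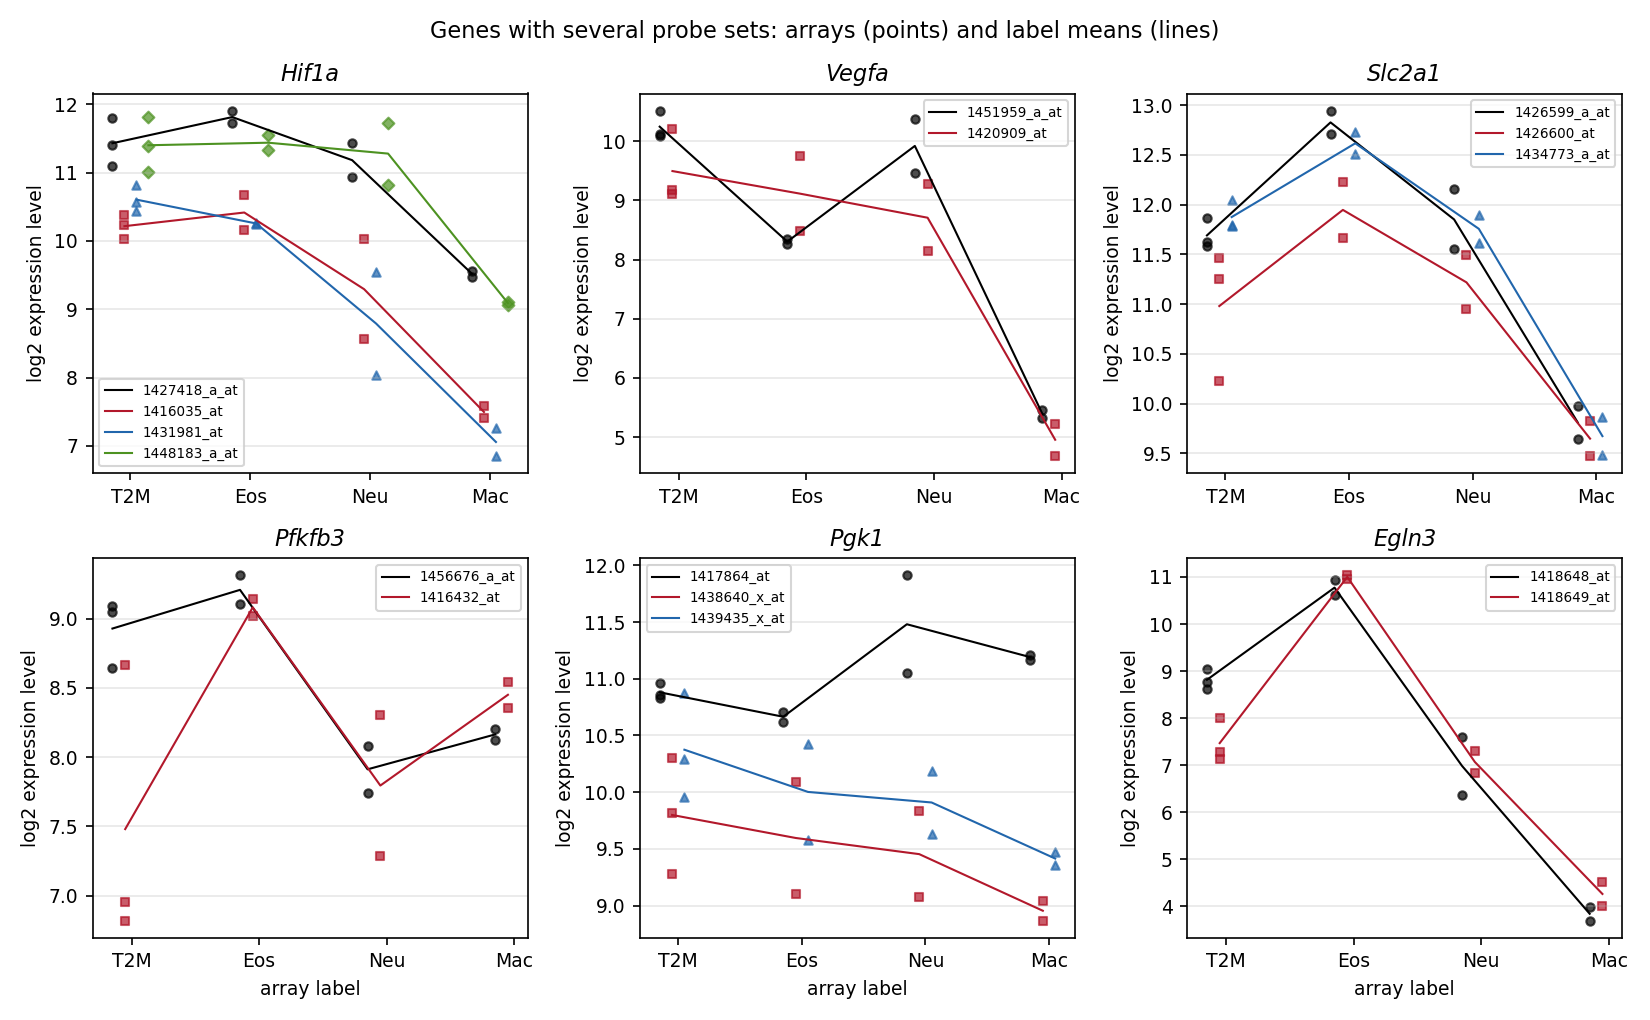
Log2 level (vertical axis, scaled separately per gene) of every probe set of the 6 genes with more than 1, by array label; points are arrays and lines join label means. All probe sets of Hif1a, Vegfa, Slc2a1 and Egln3 are lowest under the macrophage label, the Pfkfb3 sets and 1 Pgk1 set are not, and within each gene other than Egln3 the order of the labels differs between probe sets.

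Slc2a1, which encodes the glucose transporter GLUT1, was highest under the eosinophil label, which carried the neutrophil markers, and lowest under the macrophage label. Its log2 level was 11.86, 11.62 and 11.59 under the T2M label, 12.71 and 12.94 under the eosinophil label, 11.55 and 12.15 under the neutrophil label, and 9.98 and 9.64 under the macrophage label. The eosinophil-labelled arrays lay above all others, the T2M- and neutrophil-labelled arrays overlapped, and the macrophage-labelled ones lay below. Against the macrophage label, the eosinophil label was 8.09-fold higher (3.02, SE 0.28, adjusted p = 0.000517), the neutrophil label 4.11-fold (2.04, SE 0.28, adjusted p = 0.00932) and the T2M label 3.68-fold (1.88, SE 0.26, adjusted p = 0.00331). The dimmest Slc2a1 probe set was called there for the eosinophil label (2.30, adjusted p = 0.0139) only. It gave 1.33 for the T2M label (adjusted p = 0.0665) and 1.57 for the neutrophil label (adjusted p = 0.164). The remaining set was called for each of these labels (2.94, 2.20 and 2.08 for eosinophil, T2M and neutrophil). Tested over all probe sets, T2M against eosinophil was called for no Slc2a1 set (adjusted p 0.0596, 0.151 and 0.303). The T2M label was 2.2-fold below the eosinophil label (-1.14, SE 0.26, adjusted p = 0.0481), a call that was lost without each array in turn other than the neutrophil-labelled ones (adjusted p 0.0581 to 0.264) and in 7 processing alternatives (0.0525 to 0.175). The T2M against macrophage call was lost without macrophage replicate 2 (0.0542), and the neutrophil against macrophage call without macrophage replicate 1 (0.0755) or 2 (0.133), with both averaged (0.104) or with the arrays of the 2 labels alone (0.0857).

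Hk2, Ldha and Pgk1, enzymes of glucose breakdown, passed no test in the main fit, and the regulator Pfkfb3 passed 2. Hk2, the inducible hexokinase of the first glycolytic step, ranged from 9.09 to 9.98 under the T2M label, was at 9.80 and 8.67 under the eosinophil label, at 9.41 and 9.56 under the neutrophil label and at 8.65 and 8.69 under the macrophage label, and was called in 0 of 6 comparisons by limma, with 0 at an unadjusted p under 0.05 as well. The eosinophil-labelled arrays spanned most of its whole range of 1.33. With quantile normalization, Hk2 was called higher under the T2M than the macrophage label (1.29, adjusted p = 0.0494). Pfkfb3, which makes the fructose bisphosphate that activates phosphofructokinase, read 9.09, 9.05 and 8.64 under the T2M label, 9.10 and 9.31 under the eosinophil label, 7.74 and 8.08 under the neutrophil label, and 8.12 and 8.20 under the macrophage label. The eosinophil-labelled arrays were the highest. They exceeded the neutrophil label 2.46-fold (1.30, SE 0.26, adjusted p = 0.022) and the macrophage label 2.06-fold (1.04, SE 0.26, adjusted p = 0.0283), while T2M against neutrophil was 1.02 (adjusted p = 0.0659). The second Pfkfb3 probe set was called in no comparison and placed the T2M label below the macrophage label (-0.97), not above it. With quantile normalization, the brighter set was called for T2M against neutrophil (1.24, adjusted p = 0.0353) and against macrophage (1.23, adjusted p = 0.0125). The latter was also called with the arrays of the 2 labels alone (0.76, adjusted p = 0.0451). The eosinophil against neutrophil call was lost without any eosinophil- or macrophage-labelled array or neutrophil replicate 1 (0.0524 to 0.109), and the eosinophil against macrophage call without any array of those labels (0.0723 to 0.186). In 5 processing alternatives each, the calls were lost as well (0.0561 to 0.152 and 0.0507 to 0.163).

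Ldha, the lactate dehydrogenase subunit that turns pyruvate into lactate, had the smallest range of the 10 genes, 1.07, at 11.15, 11.20 and 11.25 under the T2M label, 10.49 and 10.54 under the eosinophil label, 10.94 and 11.55 under the neutrophil label, and 10.94 and 10.79 under the macrophage label. The eosinophil-labelled arrays were lowest, by 0.69 against the T2M label (adjusted p = 0.171), and no comparison was called in the main fit, with 2 of 6 at an unadjusted p under 0.05. With quantile normalization, T2M against eosinophil was called (0.96, adjusted p = 0.0388). Without neutrophil replicate 1, eosinophil against neutrophil was -1.04, with a single neutrophil-labelled array left. Pgk1, the phosphoglycerate kinase that yields ATP in glycolysis, was at 10.96, 10.85 and 10.83, then 10.71 and 10.62, then 11.05 and 11.91, then 11.17 and 11.21 in the same order of labels. The label means spanned 10.66 to 11.48, and the largest difference, eosinophil against neutrophil, was -0.82 (adjusted p = 0.15), the 1 comparison under an unadjusted p of 0.05. Without neutrophil replicate 1, this difference was -1.25. Both other Pgk1 probe sets, of a type that may cross-hybridise with related transcripts, placed the T2M label above the macrophage label (0.84 and 0.96) where the first placed it below (-0.31), with none called. Ldha and Pgk1 hold HIF core letters in the sequences above, as Acod1 and Egln3 do.

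Bnip3, a hypoxia-induced mitochondrial protein that promotes mitophagy, was called in no comparison, with 2 of 6 at an unadjusted p under 0.05. It was at 8.49, 8.05 and 7.54 under the T2M label, 9.32 and 9.04 under the eosinophil label, 7.41 and 8.85 under the neutrophil label, and 7.87 and 7.79 under the macrophage label. The eosinophil-labelled arrays were above all others, by 1.35 against the macrophage label (adjusted p = 0.0912), but the neutrophil-labelled arrays alone spanned 1.44. Eosinophil against macrophage was called with quantile normalization (1.57, adjusted p = 0.0303) and with the arrays of the 2 labels alone (1.35, adjusted p = 0.0099).

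Acod1, which makes itaconate from the TCA intermediate cis-aconitate and is induced in activated myeloid cells, had the largest range of the 10 genes, 9.01. Its log2 level was 11.55, 11.66 and 11.66 on the T2M-labelled arrays, 12.64 and 12.70 on the eosinophil-labelled, 10.08 and 8.01 on the neutrophil-labelled and 5.82 and 3.69 on the macrophage-labelled arrays. The labels did not overlap, and the replicates were close under the T2M and eosinophil labels and far apart under the neutrophil and macrophage labels (SD 0.07, 0.04, 1.46 and 1.51). With 1 macrophage-labelled array near its array's median and the other far under it, the folds against that label are not exact. The eosinophil label was 242-fold above the macrophage label (7.92, SE 0.76, adjusted p = 0.000577), the T2M label 117-fold (6.87, SE 0.69, adjusted p = 0.000958) and the neutrophil label 19.7-fold (4.30, SE 0.76, adjusted p = 0.027). The eosinophil label was also 12.3-fold above the neutrophil label (3.62, SE 0.76, adjusted p = 0.0261), while T2M against neutrophil (2.57, SE 0.69, adjusted p = 0.1) and T2M against eosinophil (-1.05, SE 0.69, adjusted p = 0.545) were not called. The eosinophil against neutrophil call was lost without eosinophil replicate 1 (0.0957) or 2 (0.106) or neutrophil replicate 2 (0.0825), and in 2 processing alternatives (0.0714 and 0.101). The neutrophil against macrophage call was lost without macrophage replicate 2 (0.192), neutrophil replicate 1 (0.108) or T2M replicate 2 or 3 (0.0541 each), and in 3 processing alternatives (0.0644 to 0.157).

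Counted over the 10 genes, the comparisons with the macrophage label held most of the calls. T2M against macrophage had 5 members called, all higher, where 6.53% of all genes were called higher and 17.2% in either direction. Eosinophil against macrophage had 6, all higher (5.89% of all genes higher and 17.4% in either direction), and neutrophil against macrophage 5, all higher (1.13% and 2.26%). The members' median differences were 1.36, 1.82 and 1.24, beside 0.18, 0.18 and 0.17 over all genes. These 3 comparisons share the macrophage-labelled arrays, and fewer of all genes were called in each when those arrays were averaged. With those arrays averaged as 1, 4 of the 5, 5 of the 6 and 1 of the 5 calls were made. Eosinophil against neutrophil had 3 members called higher (Pfkfb3, Egln3 and Acod1) and 1 lower (Vegfa), with 3.55% and 4.33% of all genes called in these directions and 7.88% in either. Those 4 calls became 1 without eosinophil replicate 1 or 2 and 2 without either macrophage-labelled array. T2M against eosinophil had 1 higher (Vegfa) and 2 lower (Slc2a1 and Egln3), where 1.57% and 2.89% of all genes were so called and 4.46% in either direction. T2M against neutrophil had 1 (Egln3), with 2.82% of all genes called, and this count became 3 without neutrophil replicate 1 and 0 without any other array. The 3 calls of T2M against eosinophil became 0 without eosinophil replicate 1 or 2 and 1 without T2M replicate 2 or 3 or either macrophage-labelled array. The 5 calls of neutrophil against macrophage became 3 without T2M replicate 2, and 2 and 1 without macrophage replicates 1 and 2.

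Calls over probe sets were likewise most numerous against the macrophage label. Of the 20 member probe sets, 11, 13 and 9 were called for T2M, eosinophil and neutrophil against macrophage, beside the shares of all probe sets given for Hif1a. For T2M against eosinophil 3 were called (3.16% of all probe sets), for T2M against neutrophil 0 (1.79%; at limma's adjusted threshold, with 4 of the 20 at an unadjusted p under 0.05), and for eosinophil against neutrophil 5 (5.68%). Arrays of the compared labels did not overlap for 9, 9 and 7 of the 10 genes against the macrophage label, beside 68.4%, 77.8% and 59.8% of all genes. They did not overlap for 8 genes in T2M against eosinophil (33.5% of all genes), 4 in T2M against neutrophil (25.8%) and 9 in eosinophil against neutrophil (40.4%).

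**Figure D3:**
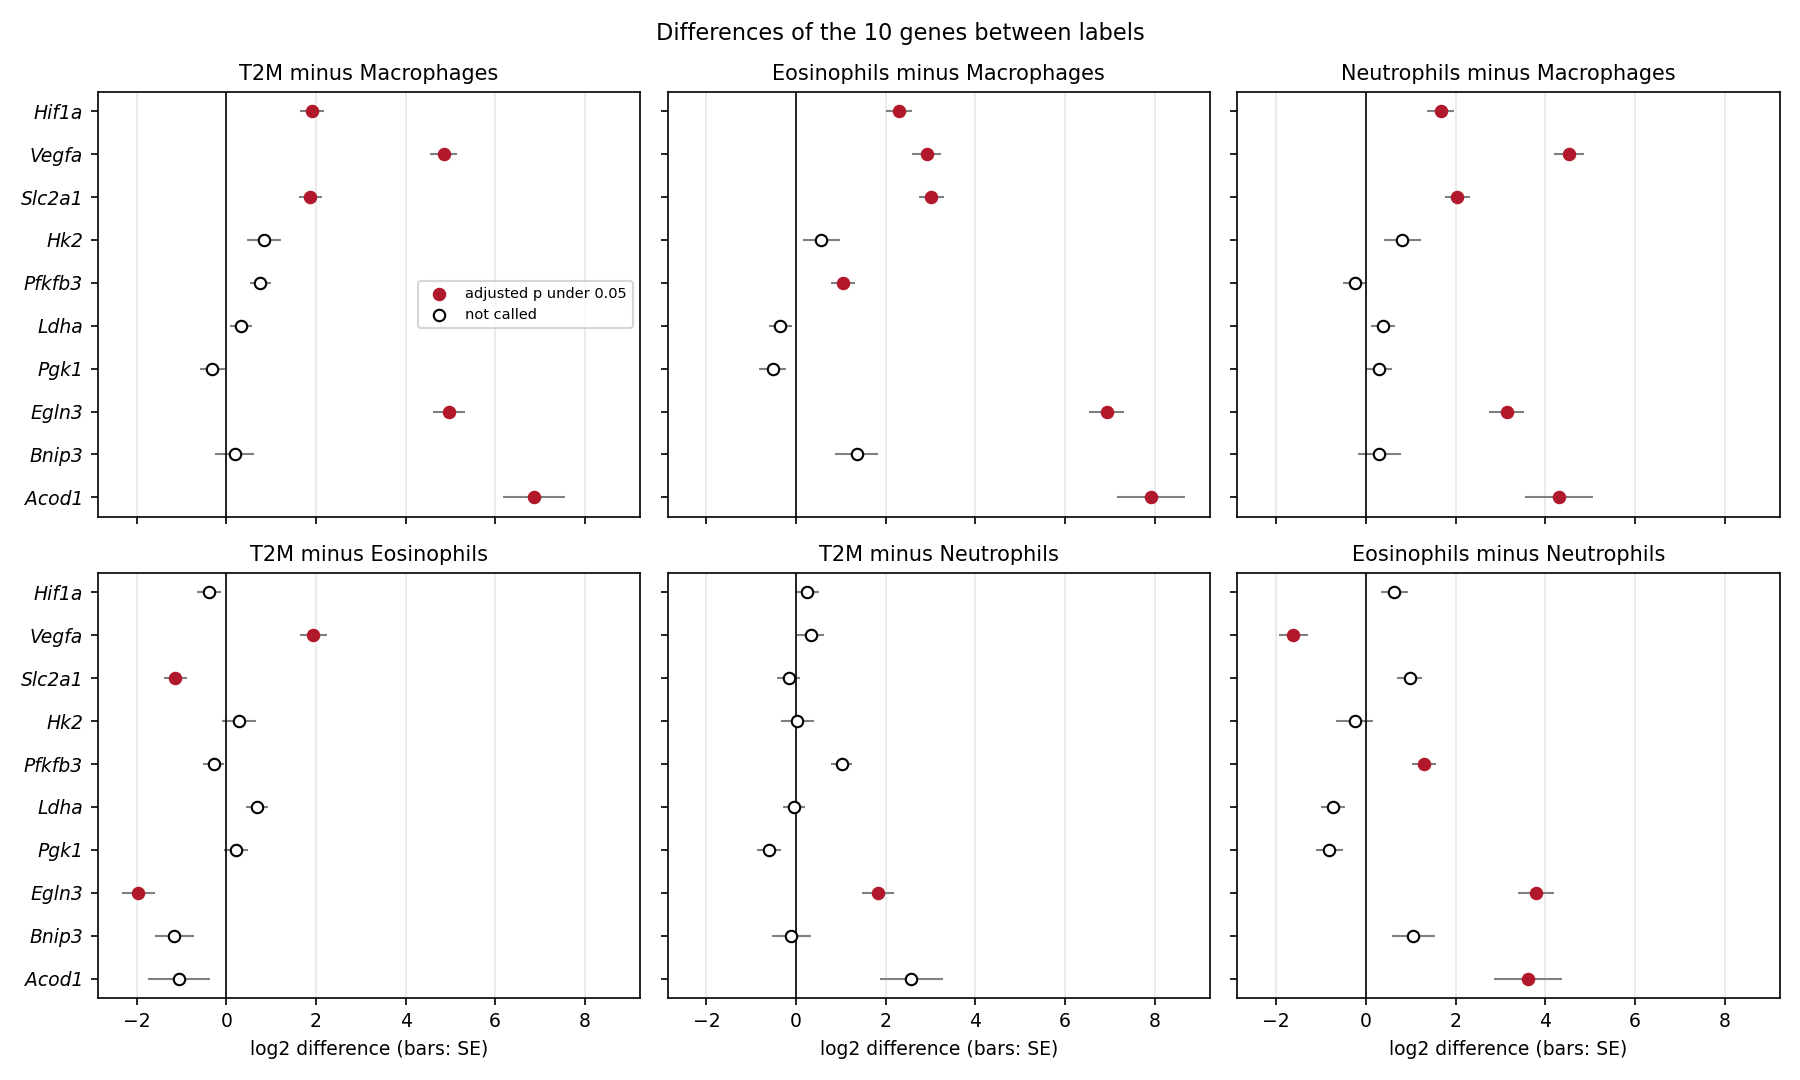
Log2 difference (horizontal axis) of each of the 10 genes (vertical axis) in the 6 comparisons of labels, first label minus second; bars are 1 SE either side and filled points have an adjusted p under 0.05. The 3 upper panels, against the macrophage label, hold 5, 6 and 5 filled points, all to the right of 0, and the lower panels hold 3, 1 and 4 on both sides.

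The order of the label means differed from gene to gene. The macrophage label was the lowest for 7 of the 10 genes, as it was for 46.9% of all genes, and the eosinophil label was the highest for 6 (Hif1a, Slc2a1, Pfkfb3, Egln3, Bnip3 and Acod1), as it was for 23.8% of all genes. Vegfa and Hk2 were highest under the T2M label, and Ldha and Pgk1 under the neutrophil label. Over the 9 arrays, which share labels and differ in number per label, Egln3 and Acod1 had a Pearson correlation of 0.96 (Spearman 0.97), and Hif1a and Slc2a1 0.95 (0.90). Pgk1, by its brightest probe set, ran against Acod1 (-0.62, Spearman -0.95) and Egln3 (-0.65, Spearman -0.92). These 4 are given as descriptions out of 45 pairs. Both other Pgk1 probe sets had another order, highest under the T2M label (means 9.80 and 10.37) and lowest under the macrophage label (8.95 and 9.41). Correlations of those probe sets are not given.

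The pattern of each gene was also set beside those of the 11972 genes that spanned at least 1 log2 unit, by Pearson correlation over the 9 arrays. Nearest to Hif1a were Arg2, an arginase (0.990), and Nr4a3, a nuclear receptor (0.985). Nearest to Vegfa were Il6, the inflammatory cytokine (0.978), and Retnla, a product of alternatively activated macrophages and eosinophils (0.976). Slc2a1 was nearest to Ccr1, a chemokine receptor of neutrophils and monocytes (0.990). Egln3 was nearest to Zfp507 (0.989) and Tnfaip2 (0.982), and Acod1 to Csf1, the macrophage growth factor (0.996), and Ccl3, a chemokine (0.993).

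The other measured genes of glucose uptake and glycolysis, 32 in number, were called in both directions. T2M against macrophage had 4 higher and 3 lower with a median difference of -0.12 (6.53% of all genes were called higher and 10.6% lower), eosinophil against macrophage 4 and 4 with -0.13 (5.89% and 11.5% of all genes), and T2M against eosinophil 0 and 0 with 0.18 (limma; 5 and 3 at an unadjusted p under 0.05). Slc2a3, the high-affinity glucose transporter GLUT3, read 10.82, 10.72 and 11.34 under the T2M label, 10.61 and 10.82 under the eosinophil label, 7.42 and 7.89 under the neutrophil label, and 9.27 and 8.77 under the macrophage label. Unlike Slc2a1, it was lowest on the neutrophil-labelled arrays, with T2M against neutrophil at 3.31 (adjusted p = 0.0042) and eosinophil against neutrophil at 3.06 (adjusted p = 0.00204). Pfkp, the platelet-type phosphofructokinase, was highest on the neutrophil-labelled arrays (10.84 and 10.91), 2.13 above the macrophage label (adjusted p = 0.00395) and 1.25 above the T2M label (T2M minus neutrophil -1.25, adjusted p = 0.0301). Slc16a3, the lactate exporter MCT4, was higher than under the macrophage label by 2.52 under the T2M label (adjusted p = 0.0399) and 3.47 under the eosinophil label (adjusted p = 0.0163). Eno3, the muscle enolase, and Bpgm, which makes bisphosphoglycerate, were lower under the T2M label than under the macrophage label (-3.10, adjusted p = 0.00608, and -1.98, adjusted p = 0.0141), as was Pdk3, a kinase that shuts off pyruvate dehydrogenase (-2.01, adjusted p = 0.0228). Aldoa, Tpi1, Pgam1 and Pkm, which act in the middle and lower pathway, were called in 0 of 6 comparisons by limma, and passed an unadjusted p of 0.05 in 1, 3, 1 and 0.

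Of 26 other genes known to be induced by hypoxia, 8 were called higher and 2 lower under the T2M than the macrophage label, beside 6.53% and 10.6% of all genes, and the median difference was 0.71 beside 0.18. Under the eosinophil label 6 were called higher and 2 lower, beside 5.89% and 11.5% of all genes, with a median of 0.44. Under the neutrophil label 1 was called higher and 0 lower, beside 1.13% of all genes in each direction. The median there was 0.66 beside 0.17, and 10 were higher and 1 lower at limma's unadjusted p under 0.05. Adm, the vasodilator adrenomedullin, read 11.82, 11.20 and 11.23 under the T2M label, 10.35 and 8.90 under the eosinophil label, 8.47 and 8.16 under the neutrophil label, and 7.82 and 7.86 under the macrophage label. It was highest under the T2M label, by 3.58 against the macrophage label (adjusted p = 0.00166) and 3.10 against the neutrophil label (adjusted p = 0.0117). Ero1a, an oxidase of protein folding in the endoplasmic reticulum, was at 10.91, 11.47 and 11.22 under the T2M label and 8.46 and 8.32 under the macrophage label (2.81, adjusted p = 0.001), and was the 1 gene of the list called higher under the T2M than the eosinophil label (1.37, adjusted p = 0.0367). Edn1, the vasoconstrictor endothelin, was higher than under the macrophage label by 2.24 under the T2M label (adjusted p = 0.00504) and 1.81 under the eosinophil label (adjusted p = 0.0136). Adm and Edn1 are expressed by vessel cells too, and the part of the epithelial, endothelial and stromal markers in these differences was not tested. The levels of Cdh5 and Pecam1 are given with Epas1. Bhlhe40, a transcriptional repressor, was higher than under the macrophage label by 2.02 under the T2M label (adjusted p = 0.00299) and 2.24 under the eosinophil label (adjusted p = 0.00214). Car9, a carbonic anhydrase often used as a marker of hypoxia, was lower under both (-1.55, adjusted p = 0.0375, and -2.09, adjusted p = 0.0164), and Anxa2, a membrane-binding annexin, under the T2M label (-1.67, adjusted p = 0.0332).

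The TCA cycle list, which frames the substrate of Acod1, had 0 genes called higher and 4 of 25 lower under the T2M than the macrophage label (median -0.82; 10.6% of all genes were called lower). It had 0 higher and 8 lower under the eosinophil label (median -1.21; 11.5% of all genes called lower). These stand beside all-gene medians of 0.18 and with limma's unadjusted p under 0.05 for 0 higher and 7 and 18 lower. Suclg1, a succinyl-CoA ligase subunit, was at 6.22, 6.13 and 6.24 under the T2M label, 5.82 and 6.12 under the eosinophil label, 6.82 and 8.57 under the neutrophil label, and 8.50 and 8.59 under the macrophage label. It was lower by 2.35 and 2.58 against the macrophage label under the T2M and eosinophil labels (T2M minus macrophage -2.35, adjusted p = 0.0114; eosinophil minus macrophage -2.58, adjusted p = 0.00936). Idh2, the mitochondrial isocitrate dehydrogenase that uses NADP, was lower as well (-2.71, adjusted p = 0.00577, and -2.59, adjusted p = 0.00827). Fh1, the fumarase, had the largest difference of the list between the eosinophil and macrophage labels (-3.44, adjusted p = 0.0378), with 8.14 and 5.86 on the eosinophil-labelled arrays. Idh3a, a subunit of the NAD-dependent enzyme, was also lower under the eosinophil than the neutrophil label (-2.90, adjusted p = 0.00688).

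Few calls in these lists were kept throughout. Of 69 list calls, 6 were kept under each processing alternative and without each array in turn, namely Adm, Ero1a and Bhlhe40 for T2M against macrophage, Bhlhe40 for eosinophil against macrophage, and Slc2a3 and Idh3a for eosinophil against neutrophil. Without macrophage replicate 1 or 2, fewer glycolysis and hypoxia genes were called for T2M and for eosinophil against macrophage, and so were fewer of all genes.

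**Figure D4:**
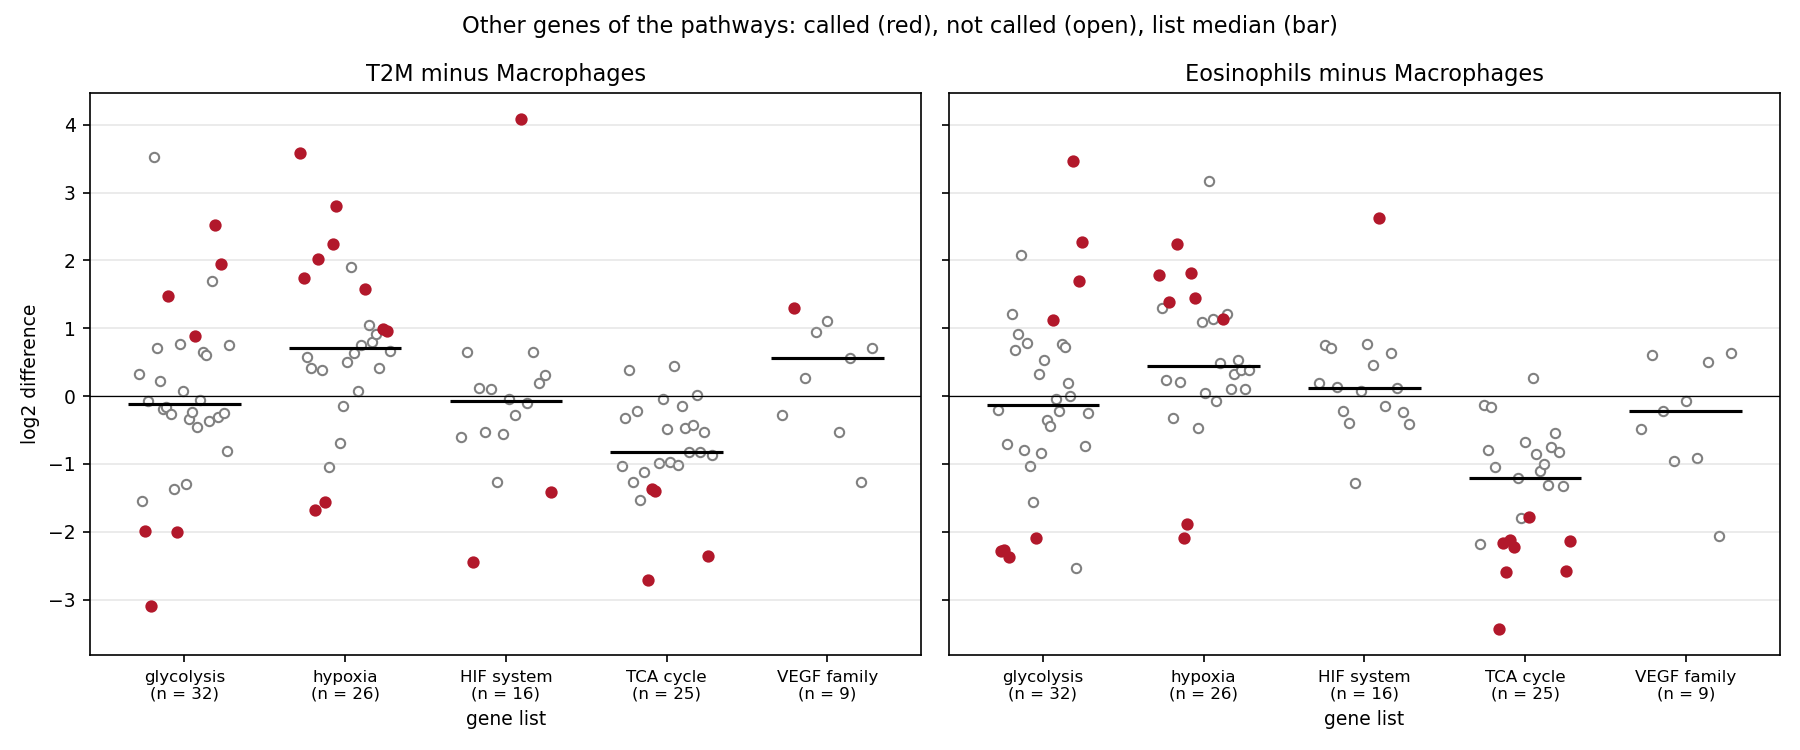
Log2 difference (vertical axis) of the other genes of each list (horizontal axis, with the number measured) for T2M minus Macrophages (left) and Eosinophils minus Macrophages (right); red points have an adjusted p under 0.05, open points do not, and bars are list medians. Glycolysis genes lie on both sides of 0 (medians -0.12 and -0.13), and all called TCA cycle genes lie below it.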

How the data were processed

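The deposited values were log2 expression levels per probe set. The authors made them with RMA, affy and limma, per the submitters' processing notes, and versions and the scaling between arrays are not given in the sources used here. Array medians ran from 5.48 to 5.68. Of 45101 probe sets, 64 controls were left out and 34945 had 1 gene symbol in the platform annotation. Each of 18193 genes was represented by its brightest probe set, by the mean of all 9 arrays.

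Labels were compared in a single limma fit of all 9 arrays (limma 3.58.1, R 4.3.3, two-sided moderated tests of contrasts between label means), with 5 residual degrees of freedom and a prior SD of 0.328. Every adjusted p in the text is limma's, adjusted by Benjamini-Hochberg over all 18193 genes of a comparison, or over all 45037 probe sets where a second probe set is given. Values under 0.05 were called. A fold is 2 to the power of the log2 difference, and errors are limma's SE. The number of arrays limits the precision (median SE 0.308 for comparisons with T2M and 0.337 for others). The fit was tested on simulated data.

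The 10 genes and the gene lists were chosen with earlier results of these data known. List genes were named from the up to 3 called per direction and comparison with the largest differences, of which the text gives part, with their other comparisons added in places. Arnt, Egln1, Egln2, Hif1an, Aldoa, Tpi1, Pgam1 and Pkm were named after their values were seen. Alternatives covered the choice of probe sets, scaling, a filter on dim genes, moderation, which arrays were fitted, a replicate block, averaged macrophage-labelled arrays and leaving out each array. Only the T2M label has a replicate 3, so the replicate block spends a term on that array. Its differences equal those without T2M replicate 3, and these 2 settings are not separate checks. Leaving out both arrays with an actin gap above 0.3 was chosen after seeing the data. Figures were drawn with matplotlib 3.10.9. Sequences came from RefSeq promoters of GRCm38.p6. Gapdh, Gpi1 and Eno1 were not analysed here.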

Additional observations from a re-analysis of the deposited data

How the results depend on the processing

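Of the 60 differences of the 10 genes, 24 were called, 11 of these in each of the 9 planned processing alternatives and 10 also without each array in turn. These 10 were Vegfa, Egln3 and Acod1 for T2M against macrophage, Egln3 for eosinophil against neutrophil, Hif1a, Vegfa, Slc2a1, Egln3 and Acod1 for eosinophil against macrophage, and Vegfa for neutrophil against macrophage. None of the 24 changed direction in these alternatives. Some uncalled differences were called in an alternative, as given above for Hk2, Pfkfb3, Ldha and Bnip3. Slc2a1 was also called for eosinophil against neutrophil with quantile normalization (1.06, adjusted p = 0.044). The labels do not say what a replicate number marks. Deviations of same-numbered arrays correlated at 0.46 and 0.38 between the T2M and eosinophil labels, at 0.14 for 1 T2M and macrophage pair and at -0.10 to 0.03 in the 9 other pairs. Deviations of a label with 2 arrays mirror each other, so both pairs between such labels give the same value and are not separate evidence. The values of 0.46 and 0.38 share the mirrored eosinophil deviations, so they are not separate evidence either. T2M replicate 1 and eosinophil replicate 1 are also the 2 arrays with the actin gap, and its part in these correlations was not tested. The numbers were not taken as pairing, and a shared source of the T2M- and eosinophil-labelled arrays was not tested. The cause of each move below was not tested, and limma's calls over all genes moved as well. With the arrays of 2 labels alone, the 812, 513 and 3123 for T2M against eosinophil, neutrophil and macrophage became 397, 0 and 4988. The 1433 and 3163 for eosinophil against neutrophil and macrophage became 215 and 5219, and the 412 for neutrophil against macrophage became 151.

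In the order T2M against eosinophil, against neutrophil and against macrophage, eosinophil against neutrophil and against macrophage, and neutrophil against macrophage, the members called numbered 3, 1, 5, 4, 6 and 5. Leaving out each array gave 0 to 3, 0 to 3, 4 to 6, 1 to 5, 5 to 7 and 1 to 5. The first became 1 with the mean of probe sets, the replicate block or averaged macrophage-labelled arrays, and 0 without the actin-gap arrays. The second became 0 with every probe set tested, trend and robust moderation, the arrays of 2 labels alone, the replicate block, averaged macrophage-labelled arrays and without the actin-gap arrays. The fourth became 2 with the mean of probe sets or averaged macrophage-labelled arrays, and 1 with 2 labels alone or without the actin-gap arrays. The last became 1 with 2 labels alone or averaged macrophage-labelled arrays.

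The 58 other glycolysis and hypoxia genes had 1, 4, 17, 3, 16 and 2 calls in the same order. Leaving out each array gave 0 to 4, 2 to 6, 3 to 27, 1 to 8, 1 to 24 and 0 to 17. T2M against eosinophil became 4 with the mean of probe sets, 3 with a common median, quantile normalization or no actin-gap arrays, 5 without dim genes, and 0 with trend and robust moderation, 2 labels alone, the replicate block or averaged macrophage-labelled arrays. T2M against neutrophil became 0 with 2 labels alone, 2 with the replicate block or averaged macrophage-labelled arrays, and 7 without the actin-gap arrays. T2M against macrophage became 28 with 2 labels alone, 10 with the replicate block and 4 with averaged macrophage-labelled arrays. Eosinophil against neutrophil became 5 with quantile normalization or no actin-gap arrays, and 1 with every probe set tested, trend and robust moderation, 2 labels alone, the replicate block or averaged macrophage-labelled arrays. Eosinophil against macrophage became 26 with 2 labels alone and 1 with averaged macrophage-labelled arrays. Neutrophil against macrophage became 6 with the mean of probe sets, 4 with quantile normalization or no actin-gap arrays, 1 with every probe set tested or 2 labels alone, and 0 with averaged macrophage-labelled arrays.

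Uncalled differences that changed sign in these alternatives were as follows, none of them called after the change. For T2M against neutrophil, quantile normalization gave Slc2a1 0.0053, Ldha 0.14 and Bnip3 0.089, a common median gave Hk2 -0.016, the replicate block gave Bnip3 0.14, and the actin-gap arrays left out gave Hk2 -0.21. With the mean of probe sets, Pgk1 was 0.070 for T2M against neutrophil, 0.50 for T2M against macrophage and 0.23 for eosinophil against macrophage, and Pfkfb3 was -0.10 for T2M against macrophage. Bnip3 was -0.040 for T2M against macrophage without the actin-gap arrays. Leaving out each array gave, for T2M against neutrophil, Vegfa -0.13 to 0.78, Slc2a1 -0.46 to 0.14, Hk2 -0.21 to 0.24, Ldha -0.35 to 0.26 and Bnip3 -0.83 to 0.62. It gave Bnip3 -0.040 to 0.44 for T2M against macrophage and Hk2 -0.28 to 0.84 for T2M against eosinophil and -0.81 to 0.31 for eosinophil against neutrophil. For neutrophil against macrophage it gave Pgk1 -0.14 to 0.72, Bnip3 -0.43 to 1.02 and Suclg1 -1.72 to 0.027.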
